A study of Mus musculus with 12 samples.

Results

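The genes described here encode the constitutive subunits of the proteasome, the multi-subunit protease that degrades ubiquitin-tagged proteins, together with assembly factors that carry the same gene names. They were chosen by name, with earlier results of these data known. The rule took every gene whose single annotated symbol is Psma, Psmb, Psmc or Psmd followed by a number. It left out the interferon-induced immunoproteasome genes Psmb8, Psmb9 and Psmb10. This gave 34 members among 17097 genes that had a probe set with a single annotated symbol, and each gene was read from its probe set with the highest mean on the log2 scale over the 12 arrays. By known role the members are 7 alpha ring and 7 beta ring subunits of the 20S core, 5 ATPases and 11 non-ATPase subunits of the 19S regulatory particle, 2 chaperones of base assembly (Psmd5 and Psmd9) and 2 tissue-restricted core subunits (Psma8 of testis and Psmb11 of thymus). The ATPase gene Psmc6 and the chaperone gene Psmd10 were not analysed here.

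The 6 groups were livers of adult Socs2-null mice and of adult C57BL/6 wildtype mice, each at 0, 24 and 36 h after surgical removal of 2/3 of the liver. Socs2-null animals were kept on the C57BL/6 background, and the 0 h animals of both genotypes were age-matched and had no operation. No group had a sham operation, so a change with time cannot be told apart from an effect of surgery or of the hour of harvest. Each group held 2 arrays, each hybridized with total liver RNA pooled from 3 animals, so n = 2 pools throughout and the spread given is that between pools, not between animals. The product of Socs2 dampens growth hormone and cytokine signalling, and the study asked how its loss affects liver regeneration. In whole-liver RNA, fewer cells of a type and less RNA per cell cannot be told apart.

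Background on the complex helps to read the values. Degradation takes place inside the 20S core, a stack of alpha, beta, beta and alpha rings in which the alpha subunits form the entry gate and Psmb5, Psmb6 and Psmb7 supply the chymotrypsin-like, caspase-like and trypsin-like active sites. A 19S particle on the end of the core binds ubiquitin chains, removes them and unfolds the substrate with a ring of ATPases. Genes for the subunits are often induced together when degradation capacity falls short, in mammals through the transcription factor NRF1 (Nfe2l1) and under oxidative stress also through NRF2 (Nfe2l2), both of which bind antioxidant response elements. In liver, the remaining hepatocytes leave quiescence after partial hepatectomy and enter the cell cycle, and the proteasome degrades cyclins and other short-lived regulators in each round of division.

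Promoter windows of 250 bases were found for 27 of the 34 members in RefSeq (GRCm38.p6), 29 windows in all. Most end directly before the annotated gene start. The windows of Psma3, Psma4, Psmb6, Psmd2 and Psmd5, and the downstream windows of Psma6 and Psmc2, lie partly or wholly inside the annotated gene. All were searched on both strands for motifs known from proteasome, cell cycle or stress promoters. The antioxidant response element core TGACNNNGC was present in 4 members (14.8% of 27, beside 10.2% of 32851 windows of all genes). These are the constitutive active site genes Psmb5 (chr14:54618009-54618067, minus strand) and Psmb6 (chr11:70525323-70525356, plus strand), the lid gene Psmd12 (chr11:107479278-107479314, plus strand) and the chaperone gene Psmd9 (chr5:123228134-123228189, plus strand). They are shown because this is the element that NRF1 and NRF2 are known to bind, with the match in capitals and up to 25 bases on each side, on the strand of the gene.
Psmb5: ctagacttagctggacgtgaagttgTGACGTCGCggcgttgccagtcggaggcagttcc
Psmb6: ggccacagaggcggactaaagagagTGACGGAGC
Psmd12: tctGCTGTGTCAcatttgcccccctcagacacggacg
Psmd9: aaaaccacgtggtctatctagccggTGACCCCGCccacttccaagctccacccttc
In Psmd12 the match lies on the strand opposite to the gene. In Psmb6 the match lies inside the annotated gene, which starts at chr11:70525324. The CRE-type motif TGACGT was present in 4 members (14.8%, beside 6.47%), and in Psmb5 it overlaps the match shown. The CCAAT box was present in 11 members (40.7%, beside 33.8%), the E2F-type site TTTCCCGC in 1 member, Psmc4 (3.7%, beside 0.895%), and its second form TTTGGCGC in 0 (0%, beside 0.417%). A match is only the presence of these letters in the window.

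The genotype label was borne out by Socs2, which read 26.4 and 27.6 (0 h), 26.6 and 29.5 (24 h) and 28.7 and 23.1 (36 h) in Socs2-null liver, against 546 and 261, 306 and 116 and 264 and 173 in wildtype liver. The tissue label was borne out by 5 hepatocyte markers (Alb, Apoa1, Ttr, Cps1 and Serpina1a), whose intensities summed to 61125 to 74077 on the 12 arrays. Some features of the arrays moved with time and bear on every comparison with 0 h. The mean log2 level of 18 hybridization controls, which are foreign transcripts added to the labelled sample, was 9.86 and 9.97 (0 h), 9.34 and 9.72 (24 h) and 9.23 and 9.01 (36 h) in Socs2-null liver. In wildtype liver the controls stood at 9.98 and 9.95, 9.90 and 9.63 and 9.21 and 9.07. The log2 ratio of the 3' to the 5' probe set of actin, a sign of RNA quality and labelling, lay between 0.29 and 0.46 on the arrays at 24 and 36 h and between 0.51 and 0.55 on the 0 h arrays. The same ratio of Gapdh did not separate by time, at -0.080 to 0.043 on the later arrays and -0.10 to 0.071 on the 0 h arrays. The part of the control and actin differences in the proteasome results was not tested beyond the covariate described with the counts. Within 2 groups the replicate arrays stood apart for the proteasome genes, and whether this gap was particular to them was not tested. Array 2 lay above array 1 for 32 of 34 members in Socs2-null liver at 36 h (median difference 0.30 on the log2 scale, all genes -0.015). It did so for 31 of 34 in wildtype liver at 24 h (median 0.19, all genes 0.02). The plot by array shows both features.

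**Figure D1:**
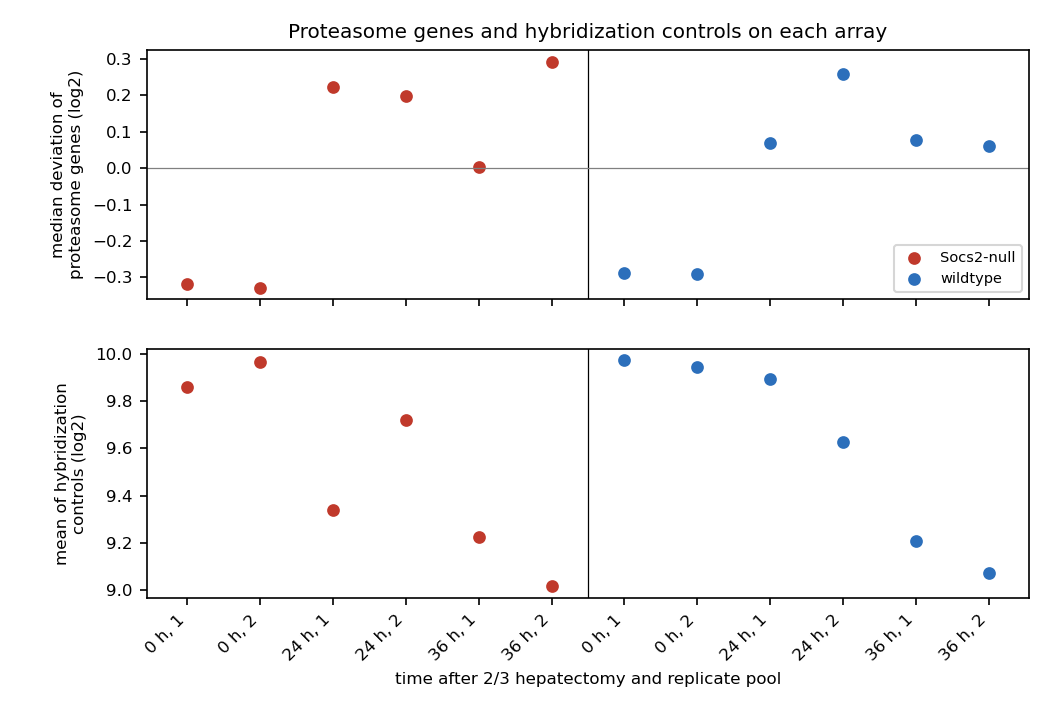
Upper panel, for each of the 12 arrays the median over 34 proteasome genes of the deviation of log2(intensity + 16) from the gene's mean over all arrays. Lower panel, the mean log2 level of the hybridization controls. Points are arrays, ordered by time within genotype. The proteasome genes stood at 0.0030 to 0.29 on the 8 arrays at 24 and 36 h and at -0.33 to -0.29 on the 4 arrays at 0 h, while the controls stood at 9.01 to 9.23 at 36 h and at 9.86 to 9.98 at 0 h.

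The log2 change against 0 h was above 0 for most proteasome subunit genes in both genotypes, though not all of these passed the threshold. In Socs2-null liver it was above 0 for 33 of 34 members at each time (44.8% and 46% of all genes). In wildtype liver it was above 0 for 33 at 24 h and 32 at 36 h (39.4% and 40.3% of all genes). In Socs2-null liver 25 of 34 members rose at 24 h and 20 at 36 h against 0 h, and in wildtype liver 20 rose at 24 h and 9 at 36 h (limma on log2(intensity + 16), Benjamini-Hochberg adjusted p under 0.05 over all 17097 genes). The share of all genes called higher was 10.8% and 9.84% in Socs2-null liver and 10.2% and 5.69% in wildtype liver, in the same order. The median log2 change of the members was 0.55 at 24 h and 0.47 at 36 h in Socs2-null liver, where the median over all genes was -0.039 and -0.026. In wildtype liver it was 0.45 at 24 h and 0.36 at 36 h, beside -0.08 and -0.065 over all genes. Comparisons with 0 h of one genotype share their 0 h arrays, so the 24 h and 36 h results are not independent of each other.

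Both later arrays lay above both 0 h arrays for 32 members at 24 h and 26 at 36 h in Socs2-null liver (27.5% and 28.4% of all genes), and for 32 at 24 h and 30 at 36 h in wildtype liver (26.9% and 24.3%). The lone member called lower in each of the 4 comparisons was the thymus gene Psmb11, which lay near background, where 13.5% and 10.1% of all genes were called lower in Socs2-null liver at 24 and 36 h and 15.6% and 9.5% in wildtype liver. Across the 4 comparisons 7 members were called higher in each (Psma7, Psmb4, Psmc4, Psmd4, Psmd7, Psmd8 and Psmd14), 10 in 3, 6 in 2, 4 in 1 and 7 in 0 (Psma8, Psmb1, Psmb3, Psmb6, Psmb7, Psmb11 and Psmd9). The plot of changes gives all 34 members with their standard errors.

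**Figure D2:**
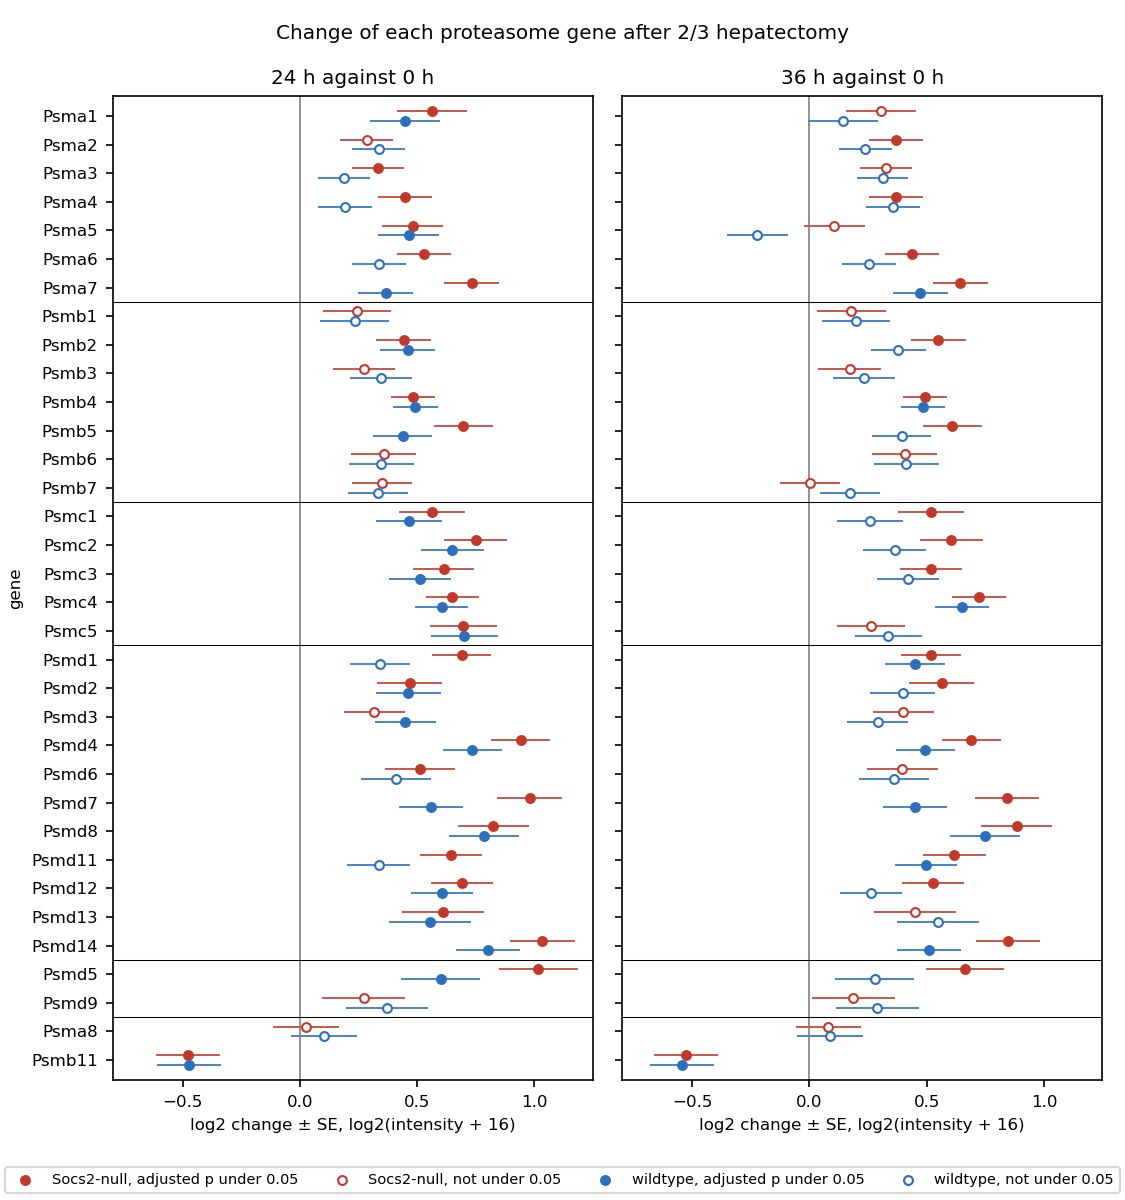
Log2 change ± standard error of each proteasome gene against 0 h of the same genotype, at 24 h (left panel) and 36 h (right panel), in order of role from the alpha ring at the top to the tissue-restricted forms at the bottom. Filled points passed the adjusted threshold, 25 and 20 members to the right of 0 in Socs2-null liver and 20 and 9 in wildtype liver, with Psmb11 alone filled to the left.

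The counts rest on few arrays. Leaving out 1 array moved the number called higher by over 1.5 times in several cases. For Socs2-null liver at 24 h it was 16 without 0 h array 1 and 14 without 0 h array 2, and at 36 h it was 9 without 0 h array 1 or 2 and 8 without 36 h array 2. For wildtype liver at 24 h it was 6 without 0 h array 1, 5 without 0 h array 2, 12 without 24 h array 1 and 6 without 24 h array 2. For wildtype liver at 36 h it was 2 without 0 h array 1, 0 without 0 h array 2, 2 without 36 h array 2 and 16 without Socs2-null 36 h array 1 or 2, which enter through the shared estimate of spread. With the hybridization control level as a covariate, added after the data were seen, 12 members were called higher in Socs2-null liver at 24 h and 0 at 36 h, and 13 in wildtype liver at 24 h and 0 at 36 h. Their median log2 change was then 0.38 and 0.14 in Socs2-null liver and 0.38 and 0.024 in wildtype liver. With that covariate 1570 and 700 of all 17097 genes were called higher in Socs2-null liver, and 1927 and 223 in wildtype liver. The control levels at 24 h and at 36 h do not overlap with those at 0 h in either genotype. Time and control level therefore cannot be told apart at either time.

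**Figure D3:**
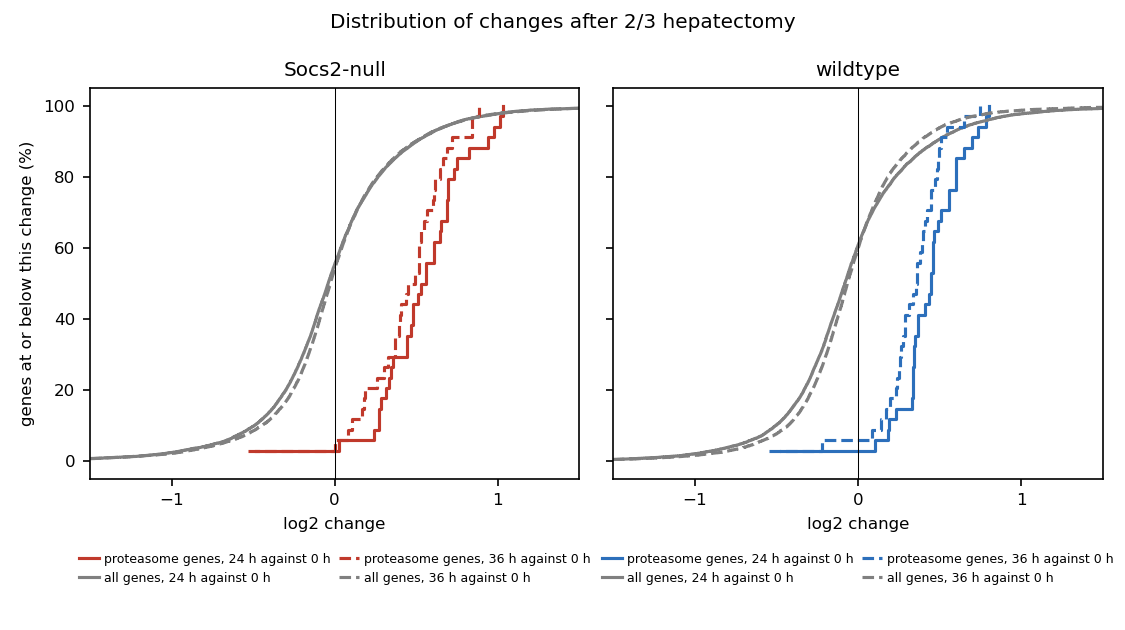
Cumulative distribution of log2 changes against 0 h, for 34 proteasome genes (coloured) and all 17097 genes (grey), in Socs2-null liver (left) and wildtype liver (right). Solid lines are 24 h and dashed lines 36 h. The proteasome curves lie to the right, with medians of 0.55 and 0.47 in Socs2-null liver and 0.45 and 0.36 in wildtype liver, beside all-gene medians between -0.080 and -0.026. The x axis is limited to 1.5 on either side.

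Among the 11 non-ATPase subunits of the 19S particle, 10 rose at 24 h and 8 at 36 h in Socs2-null liver, and 8 and 6 in wildtype liver, and they included the members with the largest changes. Psmd14, the deubiquitinase that removes ubiquitin chains before a substrate enters the core, read 1111 and 1032 before surgery, 2234 and 2184 after 24 h and 1724 and 2176 after 36 h on the Socs2-null arrays. On wildtype arrays Psmd14 read 1165 and 1168, then 1866 and 2245 and then 1567 and 1775. All 8 arrays after hepatectomy lay above the 4 arrays at 0 h. The log2 change of Psmd14 in Socs2-null liver was 1.03 ± 0.14 (adjusted p = 0.000641) at 24 h and 0.85 ± 0.14 (adjusted p = 0.00192) at 36 h. The change of Psmd14 in wildtype liver was 0.80 ± 0.14 (adjusted p = 0.00272) at 24 h and 0.51 ± 0.14 (adjusted p = 0.0297) at 36 h. The Socs2-null change at 24 h is 2.05-fold. With the hybridization covariate the wildtype value at 36 h had the opposite sign (-0.021). Psmd7, the inactive partner with which Psmd14 forms a dimer, read 675 and 572 (0 h), 1221 and 1259.7 (24 h) and 1002 and 1264 (36 h) in Socs2-null liver. In wildtype liver Psmd7 read 716 and 654 (0 h), 1025 and 1007 (24 h) and 957 and 924 (36 h). Its arrays did not overlap with 0 h in either genotype. The change was 0.98 and 0.84 in Socs2-null liver at 24 and 36 h (adjusted p = 0.000817 and 0.00193), against 0.56 and 0.45 in wildtype liver (adjusted p = 0.0138 and 0.0478). The wildtype call of Psmd7 at 36 h was lost in 11 of 25 alternatives and that at 24 h in 5.

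Psmd4, a receptor for ubiquitin chains, read 1789 and 1659, then 3207 and 3445, then 2474 and 3149.8 over 0, 24 and 36 h without Socs2. Wildtype readings of Psmd4 were 1839 and 1815, then 2841 and 3279, then 2542 and 2617. The log2 change of Psmd4 in Socs2-null liver was 0.94 ± 0.13 (adjusted p = 0.000659) at 24 h and 0.69 ± 0.13 (adjusted p = 0.0034) at 36 h. The change of Psmd4 in wildtype liver was 0.74 ± 0.13 (adjusted p = 0.00274) at 24 h and 0.49 ± 0.13 (adjusted p = 0.0237) at 36 h. Its highest values were at 24 h in both genotypes. Psmd8, a lid subunit, read 1757 and 1682 before surgery, 2755 and 3394 after 24 h and 3499 and 2898 after 36 h on the Socs2-null arrays. On wildtype arrays Psmd8 read 1959.5 and 1821, then 3161 and 3378 and then 2778 and 3658. It changed by 0.83 ± 0.15 (adjusted p = 0.00303) at 24 h and 0.88 ± 0.15 (adjusted p = 0.0024) at 36 h in Socs2-null liver and by 0.79 ± 0.15 (adjusted p = 0.00452) and 0.75 ± 0.15 (adjusted p = 0.00813) in wildtype liver. Psmd8 had the largest change of all members at 36 h in both genotypes.

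The promoter windows of the 19S genes that rose in all 4 comparisons are shown, since these genes were called throughout, with motif matches in capitals. They come from Psmd14 (chr2:61711444-61711693, plus strand), Psmd4 (chr3:95042615-95042864, minus strand), Psmd8 (chr7:29180674-29180923, minus strand) and the ATPase gene Psmc4 (chr7:28050093-28050342, minus strand), all from RefSeq GRCm38.p6 and in the direction of the gene. Psmd7 is named only.
Psmd14: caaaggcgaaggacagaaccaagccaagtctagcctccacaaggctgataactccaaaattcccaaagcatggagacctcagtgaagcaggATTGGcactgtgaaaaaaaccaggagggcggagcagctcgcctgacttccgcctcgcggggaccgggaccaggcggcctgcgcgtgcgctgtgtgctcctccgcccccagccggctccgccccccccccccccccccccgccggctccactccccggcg
Psmd4: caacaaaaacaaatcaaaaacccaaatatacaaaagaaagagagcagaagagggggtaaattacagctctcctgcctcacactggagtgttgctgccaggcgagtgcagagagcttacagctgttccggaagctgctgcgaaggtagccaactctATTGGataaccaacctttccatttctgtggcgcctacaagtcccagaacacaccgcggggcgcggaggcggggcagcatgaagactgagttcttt
Psmd8: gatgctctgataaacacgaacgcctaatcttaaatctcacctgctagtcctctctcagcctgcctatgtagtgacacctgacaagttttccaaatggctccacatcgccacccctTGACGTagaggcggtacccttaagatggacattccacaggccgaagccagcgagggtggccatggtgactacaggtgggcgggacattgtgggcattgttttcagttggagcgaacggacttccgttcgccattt
Psmc4: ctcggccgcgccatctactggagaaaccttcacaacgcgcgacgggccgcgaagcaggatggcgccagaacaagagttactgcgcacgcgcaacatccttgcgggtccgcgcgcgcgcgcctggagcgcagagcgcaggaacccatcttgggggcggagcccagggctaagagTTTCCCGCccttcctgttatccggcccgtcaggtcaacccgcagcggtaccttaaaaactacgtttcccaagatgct
Capitals mark the CCAAT box, read on the opposite strand, in Psmd14 and Psmd4, the CRE-type motif in Psmd8 and the E2F-type site in Psmc4. None of the 4 windows holds the antioxidant response element core shown for Psmb5, Psmb6, Psmd9 and Psmd12.

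The scaffold subunit Psmd1 and the lid subunits Psmd12 and Psmd13 were called in some of the 4 comparisons and not in others. Psmd1, a large scaffold subunit of the base, read 1510.0 and 1514 (0 h), 2481 and 2413 (24 h) and 1891 and 2501 (36 h) in Socs2-null liver. In wildtype liver Psmd1 read 1541 and 1572 (0 h), 1914 and 2041 (24 h) and 2061 and 2205 (36 h). It rose in Socs2-null liver at 24 h (0.69, adjusted p = 0.0033) and 36 h (0.52, adjusted p = 0.0156) and in wildtype liver at 36 h (0.45, adjusted p = 0.0364), with 0.34 ± 0.13 (adjusted p = 0.0702) in wildtype liver at 24 h. Psmd12, a lid subunit, read 1100.4 and 1187, then 1699 and 2019.7, then 1590.2 and 1722 over 0, 24 and 36 h without Socs2. Wildtype readings of Psmd12 were 1204 and 1163, then 1646 and 1983, then 1344 and 1507. Its change was 0.69 at 24 h and 0.53 at 36 h in Socs2-null liver and 0.60 and 0.26 in wildtype liver, and the call was missing in wildtype liver at 36 h (adjusted p = 0.205). Psmd13, also of the lid, read 532 and 530.5 before surgery, 897 and 749 after 24 h and 630.0 and 849 after 36 h on the Socs2-null arrays. On wildtype arrays Psmd13 read 505 and 534, then 707 and 841 and then 872 and 675. It rose at 24 h in both genotypes (0.61 ± 0.17, adjusted p = 0.0263 in Socs2-null and 0.56 ± 0.17, adjusted p = 0.0378 in wildtype liver), while at 36 h it stood at 0.45 ± 0.17 (adjusted p = 0.0938) and 0.55 ± 0.17 (adjusted p = 0.0558). In wildtype liver at 36 h its arrays were 872 and 675, a wide gap for this gene.

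Psmd11, the lid subunit that clamps the particle to the core, read, with its brightest probe set, 1255 and 1188 (0 h), 2107 and 1745 (24 h) and 1695 and 2089 (36 h) in Socs2-null liver. In wildtype liver Psmd11 read 1279 and 1269.8 (0 h), 1622 and 1602 (24 h) and 1698 and 1920.2 (36 h). By that probe set it rose in 3 comparisons, and its change was 0.64 at 24 h and 0.62 at 36 h in Socs2-null liver and 0.34 and 0.50 in wildtype liver. The gene has 5 probe sets that disagree. The next brightest changed by 0.30 and 0.16 in Socs2-null liver and 0.077 and -0.017 in wildtype liver. With the mean of all 5 the wildtype value at 36 h was -0.013 (adjusted p = 0.943). The direction of Psmd11 in wildtype liver at 36 h thus depends on the probe set. Psmd3, a lid subunit, read 512 and 515, then 627 and 660.2, then 637 and 732 over 0, 24 and 36 h without Socs2. Wildtype readings of Psmd3 were 476 and 481, then 620.0 and 699.9, then 539 and 642. It rose in wildtype liver at 24 h (0.45 ± 0.13, adjusted p = 0.028) and stood at 0.32 ± 0.13 (adjusted p = 0.0999) in Socs2-null liver at that time. The remaining non-ATPase members Psmd2 and Psmd6 changed by 0.36 to 0.56 over the 4 comparisons, with Psmd2, the second scaffold subunit, called in 3 of them and the lid subunit Psmd6 in 1.

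All 5 measured ATPases of the 19S base rose at 24 h in both genotypes, and 4 in Socs2-null and 1 in wildtype liver rose at 36 h. These subunits form the ring that unfolds substrates and drives them into the core. Psmc4 read 1185 and 1092 before surgery, 1734 and 1857 after 24 h and 1766 and 2018 after 36 h on the Socs2-null arrays. On wildtype arrays Psmc4 read 1206 and 1155, then 1770.0 and 1835 and then 1966 and 1765. It did not overlap with 0 h at any later time. The log2 change of Psmc4 in Socs2-null liver was 0.65 ± 0.11 (adjusted p = 0.00251) at 24 h and 0.72 ± 0.11 (adjusted p = 0.00164) at 36 h. The change of Psmc4 in wildtype liver was 0.60 ± 0.11 (adjusted p = 0.00427) at 24 h and 0.65 ± 0.11 (adjusted p = 0.00419) at 36 h. A second Psmc4 probe set changed by 0.80 and 0.72 in Socs2-null liver and 0.72 and 0.53 in wildtype liver. Psmc2 read 1357 and 1298 (0 h), 2296 and 2186 (24 h) and 1782 and 2304 (36 h) in Socs2-null liver. In wildtype liver Psmc2 read 1362 and 1368 (0 h), 1977 and 2337 (24 h) and 1683 and 1839.6 (36 h). It rose in Socs2-null liver at both times (0.75 ± 0.14, adjusted p = 0.00289 and 0.61 ± 0.14, adjusted p = 0.00962) and in wildtype liver at 24 h (0.65 ± 0.14, adjusted p = 0.00672), with 0.36 ± 0.14 (adjusted p = 0.0953) in wildtype liver at 36 h.

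Psmc5 had the pattern that differed most between 24 and 36 h among the ATPases. It read 957 and 887, then 1513 and 1492, then 954 and 1287 over 0, 24 and 36 h without Socs2. Wildtype readings of Psmc5 were 921 and 886, then 1376 and 1588, then 1164 and 1125. At 24 h it rose by 0.70 ± 0.14 (adjusted p = 0.00564) in Socs2-null and 0.70 ± 0.14 (adjusted p = 0.00636) in wildtype liver, and at 36 h it stood at 0.26 ± 0.14 (adjusted p = 0.23) and 0.34 ± 0.14 (adjusted p = 0.14). On Socs2-null 36 h array 1 it lay within the 0 h arrays of that genotype. Psmc1 and Psmc3 rose at 24 h in both genotypes and at 36 h in Socs2-null liver, with changes of 0.26 to 0.61 over the 4 comparisons.

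The chaperones of base assembly differed from each other. Psmd5, which holds ATPase subunits during assembly, read 421 and 375 before surgery, 813 and 827 after 24 h and 535 and 762 after 36 h on the Socs2-null arrays. On wildtype arrays Psmd5 read 460.2 and 472, then 673 and 759.8 and then 515 and 628. It rose in Socs2-null liver at 24 h (1.02 ± 0.17, adjusted p = 0.00184) and 36 h (0.66 ± 0.17, adjusted p = 0.0179) and in wildtype liver at 24 h (0.60 ± 0.17, adjusted p = 0.024), and its wildtype value at 36 h was 0.28 ± 0.17 (adjusted p = 0.291). Psmd9 read 413 and 396 (0 h), 440.1 and 548 (24 h) and 405 and 528 (36 h) in Socs2-null liver. In wildtype liver Psmd9 read 413 and 419 (0 h), 492 and 597 (24 h) and 584 and 448 (36 h). It was called in 0 of the 4 comparisons in limma, and 0 had an unadjusted p under 0.05. The changes were 0.27 at 24 h and 0.19 at 36 h in Socs2-null liver and 0.37 and 0.29 in wildtype liver with adjusted p between 0.14 and 0.498. Its Socs2-null arrays at 36 h overlapped with 0 h.

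In the alpha ring 6 of 7 members rose at 24 h and 4 at 36 h in Socs2-null liver, and 3 and 1 in wildtype liver. Psma7 was the member called in all 4 comparisons. It read 1456 and 1310.3, then 2321 and 2286, then 1983 and 2367 over 0, 24 and 36 h without Socs2. Wildtype readings of Psma7 were 1531 and 1603, then 1939 and 2110.1, then 2081 and 2286. The log2 change of Psma7 in Socs2-null liver was 0.73 ± 0.12 (adjusted p = 0.00163) at 24 h and 0.64 ± 0.12 (adjusted p = 0.00348) at 36 h. The change of Psma7 in wildtype liver was 0.37 ± 0.12 (adjusted p = 0.0415) at 24 h and 0.47 ± 0.12 (adjusted p = 0.0215) at 36 h. Its second probe set gave 0.57 and 0.60 in Socs2-null liver and 0.44 and 0.54 in wildtype liver. Psma4, which takes part in the entry gate, read 2109 and 1992 before surgery, 2959 and 2649 after 24 h and 2420.2 and 2909 after 36 h on the Socs2-null arrays. On wildtype arrays Psma4 read 2058 and 2019.6, then 2309 and 2355 and then 2751 and 2489.6. It rose in Socs2-null liver (0.45 ± 0.11, adjusted p = 0.0165 and 0.37 ± 0.11, adjusted p = 0.0424), and in wildtype liver it stood at 0.19 ± 0.11 (adjusted p = 0.235) and 0.36 ± 0.11 (adjusted p = 0.0574), although its arrays lay above 0 h at both times. Psma3 read 3495 and 3304 (0 h), 4566 and 4010.4 (24 h) and 3925 and 4629 (36 h) in Socs2-null liver. In wildtype liver Psma3 read 3328 and 3444 (0 h), 3639 and 4085 (24 h) and 4295 and 4117 (36 h). It was called in 1 comparison, Socs2-null liver at 24 h (0.33 ± 0.11, adjusted p = 0.0487), and this call was lost in 16 of 25 alternatives.

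Psma5 was called higher at 24 h in both genotypes and at 36 h in neither. It read 1108 and 1137, then 1474 and 1679, then 1139 and 1282 over 0, 24 and 36 h without Socs2. Wildtype readings of Psma5 were 1207 and 1203, then 1588 and 1749.7, then 933 and 1139. At 24 h it rose by 0.48 ± 0.13 (adjusted p = 0.0211) in Socs2-null and 0.46 ± 0.13 (adjusted p = 0.0246) in wildtype liver. At 36 h both wildtype arrays lay under both 0 h arrays (-0.22 ± 0.13, adjusted p = 0.279), and the Socs2-null arrays lay narrowly above theirs (0.10 ± 0.13, adjusted p = 0.62). Psma2 read 1678 and 1697 before surgery, 1946 and 2177 after 24 h and 2070.2 and 2304 after 36 h on the Socs2-null arrays. On wildtype arrays Psma2 read 1578 and 1665, then 1921 and 2185 and then 1834 and 2000.2. It was called in 1 comparison, Socs2-null liver at 36 h (0.37 ± 0.11, adjusted p = 0.042). Of the other alpha genes Psma1 rose at 24 h in both genotypes and Psma6 rose at both times in Socs2-null liver, with changes of 0.14 to 0.56 over the 4 comparisons.

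In the beta ring 3 of 7 members rose at each time in Socs2-null liver, and 3 at 24 h and 1 at 36 h in wildtype liver. Psmb4, which closes the ring late in assembly, had the most even values and read 3047 and 2987 (0 h), 4137 and 4298 (24 h) and 4031 and 4484 (36 h) in Socs2-null liver. In wildtype liver Psmb4 read 2989.7 and 3017 (0 h), 4026 and 4446 (24 h) and 4341 and 4070.2 (36 h). The log2 change of Psmb4 in Socs2-null liver was 0.48 ± 0.095 (adjusted p = 0.00443) at 24 h and 0.49 ± 0.095 (adjusted p = 0.00438) at 36 h. The change of Psmb4 in wildtype liver was 0.49 ± 0.095 (adjusted p = 0.00461) at 24 h and 0.48 ± 0.095 (adjusted p = 0.00733) at 36 h. Of the 3 active site subunits only Psmb5 was called. It read 2061 and 2166, then 3583 and 3294, then 2892 and 3615 over 0, 24 and 36 h without Socs2. Wildtype readings of Psmb5 were 2329 and 2400.0, then 2998 and 3430.3, then 3323 and 2908. It rose in Socs2-null liver at 24 h (0.70 ± 0.13, adjusted p = 0.00295) and 36 h (0.61 ± 0.13, adjusted p = 0.00646) and in wildtype liver at 24 h (0.44 ± 0.13, adjusted p = 0.0272), and it stood at 0.39 ± 0.13 (adjusted p = 0.0579) in wildtype liver at 36 h.

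Psmb6 read 1823 and 1767 before surgery, 2243 and 2364 after 24 h and 2115 and 2683 after 36 h on the Socs2-null arrays. On wildtype arrays Psmb6 read 1796 and 1829.6, then 2114 and 2524 and then 2635 and 2220.3. Its arrays lay above 0 h in all 4 comparisons with changes of 0.36 at 24 h and 0.41 at 36 h in Socs2-null liver and 0.35 and 0.41 in wildtype liver, and its adjusted p lay between 0.0603 and 0.0849. Psmb7 read 727 and 712 (0 h), 998 and 849.9 (24 h) and 722 and 719 (36 h) in Socs2-null liver. In wildtype liver Psmb7 read 659 and 731 (0 h), 869 and 887 (24 h) and 851 and 724 (36 h). It stood at 0.35 ± 0.13 (adjusted p = 0.07) in Socs2-null and 0.33 ± 0.13 (adjusted p = 0.0788) in wildtype liver at 24 h, and at 36 h its Socs2-null arrays overlapped with 0 h (0.0018 ± 0.13, adjusted p = 0.995). Psmb1 read 2106 and 2179, then 2672 and 2412, then 2156 and 2733 over 0, 24 and 36 h without Socs2. Wildtype readings of Psmb1 were 2178 and 2183, then 2303 and 2857, then 2753 and 2277. It had the smallest changes of the beta ring at 24 h, 0.24 and 0.23. Psmb2 rose in 3 comparisons and Psmb3 in 0, with changes of 0.17 to 0.55 over the 4.

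**Figure D4:**
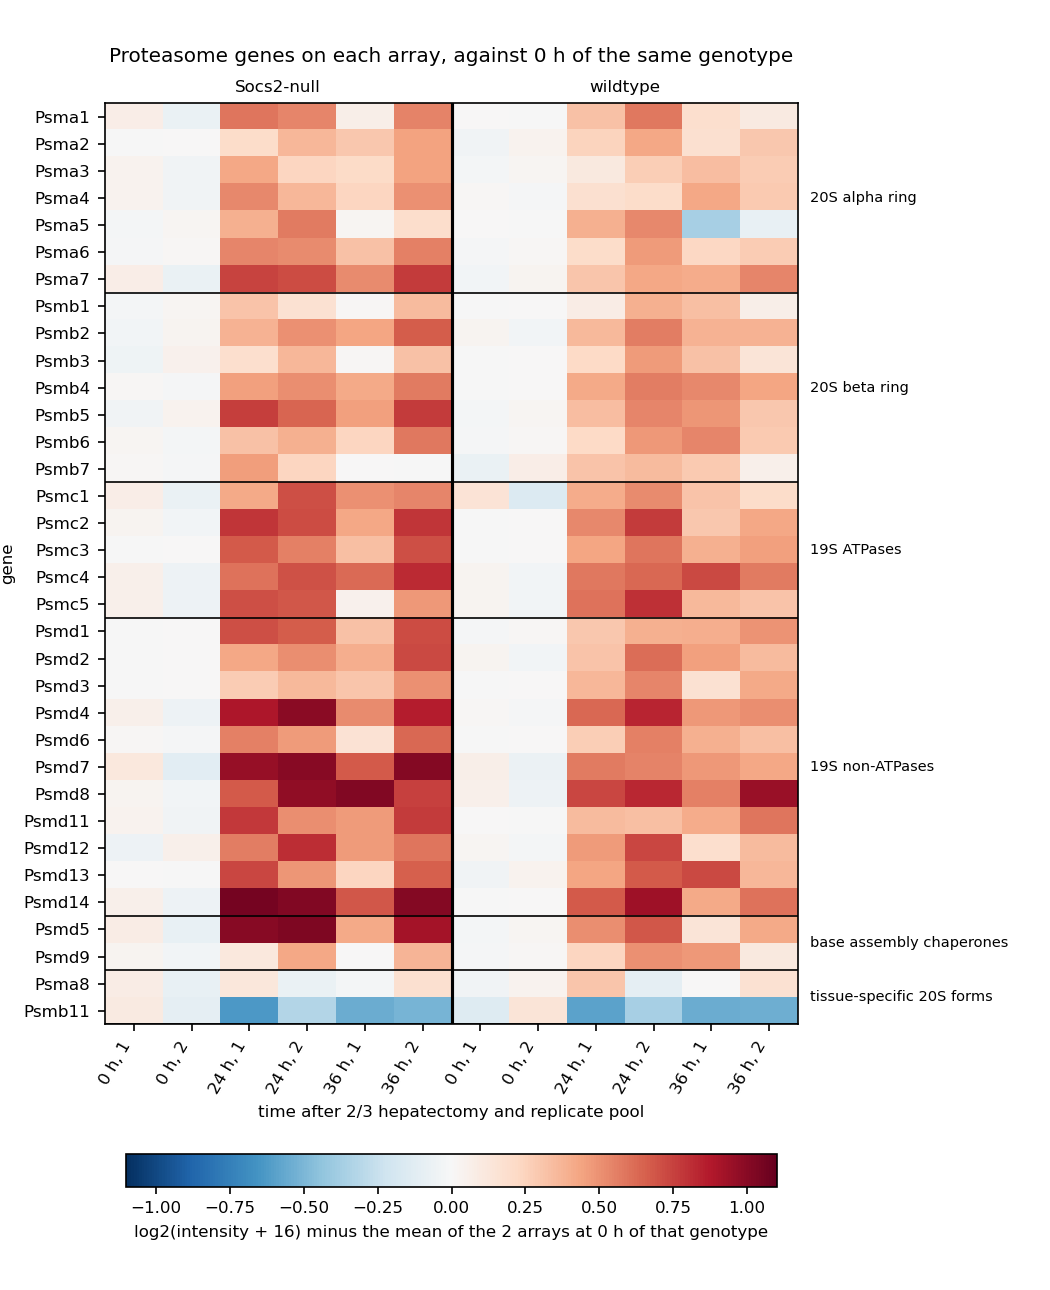
Heat map of log2(intensity + 16) for 34 proteasome genes (rows, grouped by role) on 12 arrays (columns), each relative to the mean of the 0 h arrays of the same genotype, with Socs2-null left of wildtype. Red is above and blue below that mean. The deepest red lies in the 19S non-ATPase rows, with Psmd14 at a mean of 1.03 in Socs2-null liver at 24 h, and array 2 is redder than array 1 in Socs2-null liver at 36 h and wildtype liver at 24 h.

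The tissue-restricted subunits stood apart from the rest and lay near background, taken for each array as the brightest of 17 tag control probe sets. Psma8 read 39.8 and 33.5 before surgery, 41.4 and 34.0 after 24 h and 35.9 and 43.5 after 36 h on the Socs2-null arrays. On wildtype arrays Psma8 read 35.8 and 38.4, then 49.5 and 33.7 and then 37.4 and 43.6. It was under that limit on 7 of 12 arrays and was not called in any of the 4 comparisons (adjusted p between 0.62 and 0.91). No fold is given where both groups lie at background. Psmb11 read 72.7 and 61.6 (0 h), 37.5 and 50.2 (24 h) and 40.9 and 42.2 (36 h) in Socs2-null liver. In wildtype liver Psmb11 read 60.1 and 76.5 (0 h), 39.9 and 49.2 (24 h) and 41.4 and 41.7 (36 h). It was called lower in each comparison (-0.48 ± 0.14, adjusted p = 0.0258 and -0.53 ± 0.14, adjusted p = 0.0195 in Socs2-null liver, -0.47 ± 0.14, adjusted p = 0.0266 and -0.54 ± 0.14, adjusted p = 0.0221 in wildtype liver), but 2 of its wildtype arrays after hepatectomy were under the tag control limit, and the call at 24 h ended under quantile normalization in both genotypes and under centring in wildtype liver. Psmb11 and Psmb5 neighbour each other in the annotation.

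Changes were larger at the level of medians for 19S than for 20S genes. Over the 16 subunits of the 19S particle the median log2 change was 0.67 at 24 h and 0.55 at 36 h in Socs2-null liver and 0.56 and 0.44 in wildtype liver. Over the 14 core subunits without Psma8 and Psmb11 it was 0.44 and 0.37 in Socs2-null liver and 0.35 and 0.28 in wildtype liver. The number called higher was 15 of 16 against 9 of 14 at 24 h and 12 against 7 at 36 h in Socs2-null liver, and 13 against 6 and 7 against 2 in wildtype liver. The difference between the particles was not tested, since probe sets differ in their response and the members are not replicates of each other.

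Between 36 and 24 h 0 members were called in limma in Socs2-null liver (0.00585% of all genes called in either direction) and 0 in wildtype liver (0.24%). An unadjusted p under 0.05 was reached by 1228 of all 17097 genes in Socs2-null liver and 2546 in wildtype liver. Of the members, 3 in each genotype reached it, all of them lower at 36 h. They were Psmc5 (-0.43 ± 0.14, adjusted p = 0.621), Psma5 (-0.38 ± 0.13, adjusted p = 0.621) and Psmb7 (-0.35 ± 0.13, adjusted p = 0.625) in Socs2-null liver, and Psma5 (-0.68 ± 0.13, adjusted p = 0.0598), Psmc5 (-0.36 ± 0.14, adjusted p = 0.269) and Psmd12 (-0.34 ± 0.13, adjusted p = 0.262) in wildtype liver. In wildtype liver 1 member was called lower without Socs2-null 24 h array 1 or 2. The median over members was -0.087 in Socs2-null and -0.08 in wildtype liver, beside 0.015 and 0.0057 over all genes.

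No member was called between the genotypes in limma. Socs2 itself was not called at 0, 24 or 36 h (adjusted p = 0.213, 0.404 and 0.236). Over the mean of the 3 times Socs2 was called lower in Socs2-null liver (adjusted p = 0.0154). At 0 h 0 of 34 members passed (0% of all genes), with 0 at an unadjusted p under 0.05, and the median log2 change of Socs2-null against wildtype liver was -0.04 (all genes -0.037). The extremes by test statistic were Psma7 at -0.18 (95% interval -0.44 to 0.079) and Psmd5 at -0.22 (-0.59 to 0.15) on the lower side, and Psmd3 at 0.10 (-0.19 to 0.39) and Psma2 at 0.058 (-0.19 to 0.31) on the higher side. Both Socs2-null arrays lay under both wildtype arrays for 14 members and above them for 2. Over all 17097 genes the same counts were 4767 and 2380. The intervals of single members together spanned -0.59 to 0.41, so at 0 h a difference of that size in either direction could have been missed for some member.

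At 24 h 0 members passed (0.0117% of all genes). An unadjusted p under 0.05 was reached by 1408 of all 17097 genes and by 2 members. Those were Psmd1 at 0.31 (95% interval 0.026 to 0.59, adjusted p = 0.576) and Psma4 at 0.26 (0.011 to 0.51, adjusted p = 0.595), both higher in Socs2-null liver. Psmd1 read 2481 and 2413 on the Socs2-null arrays and 1914 and 2041 on the wildtype arrays at that time. The lowest statistic of a member above background belonged to Psmd9 (-0.14, interval -0.52 to 0.25). The median over members was 0.041, beside -0.017 over all genes.

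At 36 h 0 members passed (0.0234% of all genes), and 0 had an unadjusted p under 0.05. Psmd7 stood at 0.26 (95% interval -0.045 to 0.56) and Psma5 at 0.23 (-0.06 to 0.51) at one end, and Psmb7 at -0.12 (-0.40 to 0.16) and Psmd9 at -0.14 (-0.53 to 0.24) at the other. Averaged over the 3 times 0 members passed (0.0292% of all genes) or had an unadjusted p under 0.05, and the intervals of single members spanned -0.33 to 0.31. The tests of a genotype difference in the response called 0 members at 24 h (0% of all genes) and 0 at 36 h (0.00585%). An unadjusted p under 0.05 was reached by 1 and 0 members, beside 646 and 640 of all 17097 genes. The member at 24 h was Psma7, whose response was 0.37 larger in Socs2-null liver (95% interval 0.00056 to 0.73, adjusted p = 1). Response differences were above 0 for 25 members at 24 h and 26 at 36 h (73.5% and 76.5%, beside 55.8% and 60.3% of all genes). The medians over all members were 0.07 and 0.12, beside 0.027 and 0.048 over all genes. The larger number called in Socs2-null than in wildtype liver is therefore not shown to be a difference between the genotypes.

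The inducible counterparts of the active site subunits went the other way. Psmb8, Psmb9 and Psmb10 replace Psmb5, Psmb6 and Psmb7 in the immunoproteasome, which prepares peptides for antigen presentation and is plentiful in immune cells. In Socs2-null liver 2 of the 3 fell at 24 h and 3 at 36 h, and in wildtype liver 3 fell at each time. Psmb8 read 403 and 424, then 269 and 221, then 229 and 209.7 over 0, 24 and 36 h without Socs2. Wildtype readings of Psmb8 were 450.1 and 386, then 251 and 235, then 227 and 239.9. The log2 change of Psmb8 in Socs2-null liver was -0.73 ± 0.13 (adjusted p = 0.00317) at 24 h and -0.87 ± 0.13 (adjusted p = 0.00143) at 36 h. The change of Psmb8 in wildtype liver was -0.74 ± 0.13 (adjusted p = 0.00348) at 24 h and -0.80 ± 0.13 (adjusted p = 0.00336) at 36 h. Psmb9 read 330.4 and 306 before surgery, 219.6 and 144 after 24 h and 161 and 214 after 36 h on the Socs2-null arrays. On wildtype arrays Psmb9 read 356 and 295, then 208 and 197 and then 207 and 197. It fell in all 4 comparisons. Psmb10 read 623 and 621 (0 h), 519 and 491 (24 h) and 402 and 449 (36 h) in Socs2-null liver. In wildtype liver Psmb10 read 648 and 597 (0 h), 431 and 461 (24 h) and 457 and 329.9 (36 h). Its Socs2-null change at 24 h was -0.29 ± 0.15 (adjusted p = 0.179). No array after hepatectomy reached the 0 h arrays of its genotype for any of the 3 genes.

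**Figure D5:**
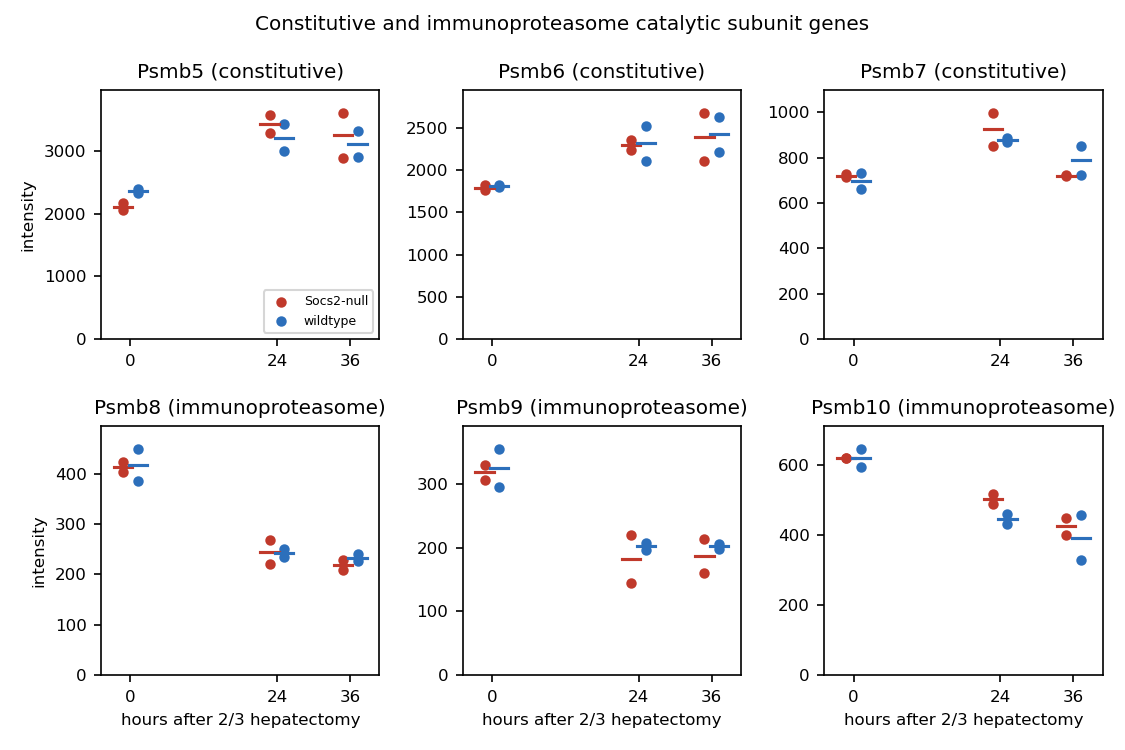
Intensity of the constitutive active site genes Psmb5, Psmb6 and Psmb7 (top) and their immunoproteasome counterparts Psmb8, Psmb9 and Psmb10 (bottom) at 0, 24 and 36 h, Socs2-null in red and wildtype in blue. Points are arrays and bars the mean of 2. In the top row the points after hepatectomy lie at or above those at 0 h except for Psmb7 at 36 h, and in the bottom row they lie below. Levels of different probe sets are not comparable.

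Other genes of the pathway were read from lists chosen by function. The list of activators and the inhibitor Psmf1 had 4 measured genes, of which Psme3, the nuclear activator PA28 gamma, rose in all 4 comparisons (0.87 ± 0.15, adjusted p = 0.0021 and 0.79 ± 0.15, adjusted p = 0.00394 in Socs2-null liver, 0.97 ± 0.15, adjusted p = 0.0017 and 0.66 ± 0.15, adjusted p = 0.0143 in wildtype liver). The interferon-induced activator genes went down where they were called, Psme1 in Socs2-null liver at 36 h (-0.48 ± 0.12, adjusted p = 0.0204) and Psme2 in wildtype liver at 24 h (-0.52 ± 0.15, adjusted p = 0.0287). Of 5 chaperones of core assembly, 1 rose in Socs2-null liver at each time, Psmg4 (0.57 ± 0.15, adjusted p = 0.02 and 0.52 ± 0.15, adjusted p = 0.0329), and 1 in wildtype liver at 24 h, Psmg2 (0.37 ± 0.12, adjusted p = 0.0471), with 0 at 36 h. Of 4 other components of the particle, 1 rose in 1 comparison, the deubiquitinase gene Usp14 in wildtype liver at 24 h (0.74 ± 0.20, adjusted p = 0.0219), and it stood at 0.54 ± 0.20 (adjusted p = 0.0748) in Socs2-null liver.

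Among 8 measured shuttle factors and cofactors of the unfoldase p97, which bring ubiquitinated proteins to the proteasome, 4 rose at each time in Socs2-null liver, and 4 at 24 h and 1 at 36 h in wildtype liver. Ufd1, a p97 cofactor, rose in all 4 comparisons and read 507 and 482, then 839 and 894, then 792 and 903 over 0, 24 and 36 h without Socs2. Wildtype readings of Ufd1 were 502 and 523, then 783 and 832, then 702 and 782. The log2 change was 0.79 and 0.76 in Socs2-null liver (adjusted p = 0.0013 and 0.00183) and 0.64 and 0.52 in wildtype liver (adjusted p = 0.0044 and 0.0169). Ubqln4, a shuttle factor, rose at 24 h in both genotypes (0.46 ± 0.12, adjusted p = 0.0201 and 0.53 ± 0.12, adjusted p = 0.0104), as did the p97 cofactor gene Nsfl1c (0.56 ± 0.18, adjusted p = 0.0433 and 0.63 ± 0.18, adjusted p = 0.0271). Of the regulators, 0 of 4 passed in any comparison. Nfe2l1 stood at 0.0039 at 24 h and -0.063 at 36 h in Socs2-null liver and 0.26 and 0.13 in wildtype liver (adjusted p at least 0.151), and Nfe2l2 at 0.23 at 24 h and 0.37 at 36 h in Socs2-null liver and 0.44 and 0.36 in wildtype liver (adjusted p at least 0.18). These are transcript levels and give no measure of the activity of factors that are controlled largely as proteins. Uba6, the 1 measured gene of ubiquitin activation, lay under background.

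Markers of other cell types moved over the same times. Of 5 lymphocyte markers, 1 fell at 24 h and 1 fell and 1 rose at 36 h in Socs2-null liver, against 2 that fell at 24 h and 2 that fell and 1 that rose at 36 h in wildtype liver. Their summed intensity was 286 to 304 at 0 h, 243 to 255 at 24 h and 274 to 301 at 36 h in Socs2-null liver, and 293 to 299, 240.4 to 299.7 and 275 to 278 in wildtype liver. Of 7 macrophage markers, 2 rose (Marco and Cd68) and 2 fell (Clec4f and Csf1r) in each of the 4 comparisons, with sums of 3358 to 3573, 3519.7 to 4334 and 3609.9 to 4679 in Socs2-null liver and 2985 to 3296, 3443 to 3703 and 3558 to 3666 in wildtype liver. On the arrays of a group, up to 3 of the 5 lymphocyte markers and 0 of the macrophage markers lay under background, and no marker was listed at 0. Both measured erythroid markers fell in each comparison. Of 5 stellate markers, 1 and 2 fell in Socs2-null liver at 24 and 36 h and 3 and 2 in wildtype liver. Of 4 endothelial markers, Kdr fell in each comparison and Pecam1 rose at 36 h in both genotypes, and 0 of 4 cholangiocyte markers were called in any comparison. The 3 neutrophil markers summed to 253 to 1637 at 24 h in Socs2-null liver, a range set by array 2. The replication gene Mcm5, 1 of 4 cycling cell markers, rose in 3 comparisons (1.65 ± 0.32, adjusted p = 0.00498 and 1.51 ± 0.32, adjusted p = 0.00887 in Socs2-null and 1.36 ± 0.32, adjusted p = 0.0131 in wildtype liver). The other cycling cell markers, Mki67, Top2a and Cdk1, were not called in any comparison with 0 h. Their changes were above 0 except that of Mki67 in Socs2-null liver at 36 h (-0.078). The sum of the 5 hepatocyte markers was 72788 to 74077, 61294 to 62399.6 and 61125 to 61956 in Socs2-null liver and 72373 to 73393, 64203 to 65396 and 61270.2 to 62425 in wildtype liver at 0, 24 and 36 h. The part of these cell types in the proteasome and immunoproteasome results was not tested.

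For 11 members the array carries further probe sets, 18 in all. Of these, 5 lay under the brightest tag control on all 12 arrays. Of the other 13, 5 were above 0 in all 4 comparisons and belonged to Psma7, Psmb3, Psmc4, Psmd4 and Psmd6, with mean intensities of 1288 to 1650.4 over the 12 arrays. Dim further probe sets of Psmd4, Psmd7, Psmd9 and Psmd11 gave smaller changes or changes below 0, as for the Psmd9 probe set with a mean intensity of 45.7 (-0.36 and -0.27 in Socs2-null liver at 24 and 36 h).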

How the data were processed

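Liver RNA of 12 pools was hybridized to Affymetrix perfect-match mouse arrays, and the deposited values are processed probe set intensities on a linear scale (1 to 24717), per the file headers one table of 45141 probe sets. How the authors corrected background, summarized probes and normalized arrays is not given in the sources used here. No further scaling was applied. Precision is limited by the number of arrays, 2 in each of 6 groups. A single symbol was annotated for 28898 probe sets, and these gave 17097 genes, each read from the probe set with the highest mean of log2(intensity + 16). A group-means model over all 12 arrays (6 residual degrees of freedom) was fitted with limma 3.58.1 and statmod 1.5.0 in R 4.3.3 (lmFit and contrasts.fit, then eBayes with an intensity trend and robust variances). The 12 comparisons were two-sided, adjusted by Benjamini-Hochberg across every gene, and called at 0.05. All adjusted p and intervals come from it. The fit was also run on simulated data with independent noise for each gene and array. Those data held no gap shared by the genes of an array, so they do not bear on the replicate gaps described above.

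The members, the lists of pathway genes and cell markers and the tests were chosen with earlier results of these data known. Genes described array by array were those with the smallest adjusted p, up to 12, the largest 5 and smallest 3 changes in each comparison with 0 h, the 2 highest and 2 lowest statistics between genotypes at each time, the active site subunits, and the members with the highest and lowest mean, plus list members past the threshold, of which some are left out for length. Promoter windows are from RefSeq (GRCm38.p6). Alternatives were leaving out single arrays, fitting only the compared arrays, a replicate block, plain eBayes, quantile normalization, centring, pseudocounts 1 and 64, a filter on the dimmest 25% or 50% of genes, averaging a gene's probe sets and removing cross-hybridizing ones. A hybridization control covariate, and leaving out wildtype 24 h array 1 with Socs2-null 36 h array 1, were added after the data were seen. Figures were drawn with matplotlib 3.10.9 in Python 3.11.15.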

Additional observations from a re-analysis of the deposited data

How the results depend on the processing

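With 2 arrays a group, the counts of proteasome genes called depended on single arrays and on the control level, whereas the median change of the members stayed above 0 in each alternative tried for the 4 comparisons with 0 h. Left out one at a time, arrays gave 14 to 25 members higher in Socs2-null liver at 24 h, 8 to 24 in Socs2-null liver at 36 h, 5 to 24 in wildtype liver at 24 h and 0 to 16 in wildtype liver at 36 h (the 0, without wildtype 0 h array 2, is a limma count), and 0 to 1 lower in each and for wildtype 36 h against 24 h. With the hybridization control covariate the members higher were 12, 0, 13 and 0 in the same order, beside 1570, 700, 1927 and 223 of all genes. The members lower were then 0 in Socs2-null liver at 24 and 36 h and in wildtype liver at 36 h. In wildtype liver at 36 h, 17 were higher with centring, 14 without the dimmest 50% of genes, 15 with only the arrays compared and 18 without wildtype 24 h array 1 and Socs2-null 36 h array 1. The lower call, Psmb11, gave 0 without the dimmest 50% of genes in all 4 comparisons, since that filter removes the gene, and 0 with quantile normalization (24 h, both genotypes), centring (wildtype 24 h), only the arrays compared (Socs2-null 24 h), and without wildtype 24 h array 1 and Socs2-null 36 h array 1 (wildtype 24 h and Socs2-null 36 h). The sign turned for Psmd14 in wildtype liver at 36 h with the covariate (-0.021, adjusted p = 0.98), and for Psmd11 there with the mean of all probe sets (-0.013, adjusted p = 0.943) and with the covariate (-0.043, adjusted p = 0.951), and the cause was not tested. Of the other values of named genes under the alternatives, 4249 kept their side of the threshold, 195 lost the call and 89 gained one. Among those 4249 the sign of an uncalled value turned in 133 of 1944 between genotypes and in 28 of 2305 against 0 h. With the covariate it turned at 36 h in wildtype liver for Psmd5 (-0.28), Psmb1 (-0.28), Psmc2 (-0.18), Psma3 (-0.16), Psmc5 (-0.10), Psmd13 (-0.028) and Psmb7 (-0.022), and in Socs2-null liver for Psmb1 (-0.28), Psmb7 (-0.19), Psmc5 (-0.16), Psma3 (-0.13) and Psmd13 (-0.11). With the mean of all probe sets it turned for Psmd11 (-0.092) and Psmd9 (-0.025) in wildtype liver at 24 h and for Psmd9 (-0.087) in Socs2-null liver at 36 h, and the other turns were of Psma8 and of Psmb7 in Socs2-null liver at 36 h. Besides Psma3 and Psmd7, calls of named genes lost in over 8 of 25 alternatives were those of Psma4 (10) and Psma2 (9) in Socs2-null liver at 36 h and of Psma7 (9) and Psmd13 (9) in wildtype liver at 24 h.

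With a replicate block the members higher were 24 and 20 in Socs2-null liver at 24 and 36 h and 19 and 8 in wildtype liver, and 1 was lower in each. Deviations of same-numbered arrays correlated at -0.50 to 0.35 over 15 pairs of groups, with a median of -0.019 and 3 of them over 0.1. The numbers thus showed no pairing common to all groups. Whether arrays of some groups shared a batch, in the same or in swapped order, was not tested. Centring on array medians turned the split of all genes, with 2548 higher and 1595 lower in Socs2-null liver at 24 h (1844 and 2302 without centring), 1980 and 1445 at 36 h (1682 and 1733), 2413 and 1599 in wildtype liver at 24 h (1752 and 2665), and 1371 and 967 at 36 h (973 and 1624). The 0 members called between genotypes stayed at 0 in each alternative tried.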
